A study of Mus musculus with 5 samples.

Results

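Type I interferon-induced genes were followed through all cell classes, subclusters and libraries of a single-cell RNA study of the foreign body granuloma, the layer of macrophages and fibroblasts that forms around an implanted material. The set was a written list of 34 mouse genes, and 33 of them were among the 21617 genes of the count table. Mx2 was not analysed here. The study held 5 mouse libraries, 1 in each group. The library titled Control came from macrophages elicited with thioglycollate, an irritant used to draw macrophages into a body cavity. The other 4 came from granulomas around a sponge or around silk, 2 and 4 weeks old by their titles (Sponge_2 wks, Sponge_4 wks, Silk_2 wks and Silk_4 wks). The labels gave no strain, age, sex, number of animals or pooling, nor any agent or allele shared by the groups. With 1 library in each group there was no replicate check and no test, and no p-value is given. Intervals are 95% intervals that cover counting error only.

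Type I interferons (interferon alpha and beta) are secreted after cells sense foreign or misplaced nucleic acid. They bind a receptor made of Ifnar1 and Ifnar2, whose kinases Tyk2 and Jak1 activate Stat2 among other signal carriers. With Irf9 it enters a complex that binds the interferon-stimulated response element in the promoters of target genes. Many of the targets block viral RNA, sense nucleic acid or feed back on the pathway. Interferon gamma, made by NK and T cells, signals through another receptor and induces an overlapping set of genes, so a raised level of these genes does not name the ligand.

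The table held 41191 cells, from 1873 in 4-week silk to 12347 in 2-week sponge, with 11207419 to 96066597 UMIs (unique molecular identifiers, each 1 counted RNA molecule) per library. The median cell held 3818 to 7109 UMIs, most in the control, and 3.24% to 6.54% mitochondrial UMIs, most in 4-week sponge. Pairs of libraries shared 2 to 27 cell barcodes. Cell classes and subclusters are the authors' own, made from the same counts, so a level that sets a subcluster apart is a description of it. In the myeloid class of monocytes, macrophages and dendritic cells (Mo-Mac), all 10 macrophage markers (among them Cd68, Csf1r and Adgre1) were detected in every library and summed to 16853 to 25087 CPM (counts per 1000000 UMIs of the class). Siglech, which marks plasmacytoid dendritic cells, the best known interferon producers, held 0 to 19 UMIs in that class per library. Subclusters C9 (a mixture by its leading genes), BP, KC and the cells named low quality were left out of the classes compared. The class values, that of Siglech among them, therefore do not say whether plasmacytoid dendritic cells lie among the cells left out.

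In Mo-Mac cells 32 of the 33 genes stood highest in 2-week sponge, and the remaining gene, Ifitm3, stood highest in the control. 4-week silk was the lowest library for 23 genes, the control for 5 (Bst2, Ifit3, Ifit3b, Isg15 and Oas3) and 2-week silk for 5 (Ddx60, Eif2ak2, Ifih1, Isg20 and Stat2). Levels below are CPM in Mo-Mac cells in the order control, 2-week sponge, 4-week sponge, 2-week silk and 4-week silk. They rest on 7783, 7113, 4605, 7350 and 1045 cells with medians of 7749, 4729, 3078, 4337 and 4217 UMIs. Libraries are from a 3' kit, so CPM is not divided by transcript length.

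The ubiquitin-like modifier Isg15 lies on chromosome 4 (156199424 to 156200818, minus strand, GRCm38), and is joined to proteins and also secreted. It stood at 8.41, 195, 43.1, 21.7 and 19.9 CPM. 2-week sponge was highest by far, and the control lowest. Its log2 ratio was 4.53 (4.42 to 4.66) in 2-week sponge against the control, -3.16 (-3.26 to -3.07) in 2-week silk against 2-week sponge and -2.18 (-2.28 to -2.08) in 4-week against 2-week sponge. Usp18, the protease that removes Isg15 from proteins and dampens the receptor, stood at 7.09, 20.3, 10.6, 5.65 and 3.31 CPM.

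The transcription factors carry the response onward. Irf7 (chromosome 7, 141262706 to 141266481, minus strand), which drives the later wave of interferon alpha genes, stood at 45.3, 217, 48.7, 26.7 and 17.2 CPM. 2-week sponge lay above the control with a log2 ratio of 2.26 (2.20 to 2.32), and 2-week silk lay 3.02 below it on the log2 scale (log2 ratio -3.02, -3.11 to -2.93). Stat2, a subunit of the response complex, stood at 21.2, 54.6, 24.7, 14.3 and 16.9 CPM. Irf9, the subunit of that complex that binds DNA, had one of the flattest profiles, at 55.4, 67.9, 45.6, 36.5 and 19.6 CPM.

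The Ifit genes, whose proteins bind foreign RNA and block its translation, lie within 99.3 kb of chromosome 19 (34550694 to 34650009). Ifit1 stood at 4.80, 35.7, 15.1, 7.22 and 2.37 CPM. Ifit2 stood at 2.11, 32.5, 10.2, 3.79 and 1.10 CPM. Ifit3 was lower in level, at 1.37, 16.8, 7.15, 2.46 and 1.42 CPM. All of these followed one order in the granulomas, with 2-week sponge first and 4-week sponge next. Ifit3b stood at 0.148, 4.20, 1.73, 0.726 and 0.158 CPM, the last resting on 1 UMI. Its longest transcript was 98.0% identical to that of Ifit3 over 1697 aligned bases, so the split between these copies is uncertain.

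Rsad2 and Cmpk2 are neighbours within 37.1 kb of chromosome 12 (26442746 to 26479837). Rsad2 encodes viperin, which makes a chain-terminating nucleotide, and stood at 14.8, 136, 42.0, 30.6 and 13.6 CPM. Cmpk2, a kinase that supplies nucleotides to it, stood at 8.38, 18.9, 8.88, 6.16 and 3.94 CPM. Both were highest in 2-week sponge, with Rsad2 at a log2 ratio of 3.20 (3.10 to 3.29) over the control and -2.15 (-2.24 to -2.06) in 2-week silk against 2-week sponge.

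The oligoadenylate synthetases make the second messenger that activates RNase L. Oas1a stood at 30.7, 53.4, 16.9, 21.4 and 9.78 CPM. Oas2 stood at 12.4, 24.2, 14.1, 7.38 and 6.15 CPM. Oas3 stood at 11.6, 59.0, 25.0, 12.6 and 12.5 CPM. These 3 genes share 177 kb of chromosome 5 (120730333 to 120907521), and 2-week sponge lay farthest above the control in Oas3. The related Oasl1 (chromosome 5, 114923240 to 114937915, plus strand), which restrains Irf7 translation, stood at 11.2, 59.5, 15.4, 9.35 and 4.10 CPM. Its neighbour Oasl2 stood at 33.2, 115, 50.3, 24.4 and 16.1 CPM. The kinase Eif2ak2 (PKR), which halts translation on double-stranded RNA, had a narrower range, at 28.8, 44.3, 21.6, 16.0 and 16.2 CPM. The exonuclease Isg20 stood at 4.64, 12.1, 4.99, 3.49 and 4.10 CPM, and Slfn5, a Schlafen family gene, at 120, 182, 74.4, 60.0 and 50.8 CPM.

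Sensors of nucleic acid had the same leading library. Zbp1, a sensor of Z-form nucleic acid that can trigger cell death, stood at 23.7, 153, 36.0, 21.8 and 21.1 CPM. Ddx60, a helicase, stood at 6.52, 36.6, 11.8, 5.48 and 6.78 CPM. Those were the widest ranges among the sensors. Ifih1 (MDA5), a cytosolic sensor of long double-stranded RNA, stood at 23.5, 51.4, 21.1, 17.2 and 18 CPM. Ddx58 (RIG-I), a sensor of RNA ends, stood at 22.6, 46.1, 21.8, 16.8 and 14.4 CPM. Dhx58, the third of the RIG-I-like helicases, modulates both and stood at 11.9, 29.4, 15.4, 8.83 and 7.10 CPM. Ifi204, a DNA sensor of the p200 family, stood at 141, 283, 104, 73.7 and 54.1 CPM.

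Membrane proteins held the most UMIs. Ifitm3, which blocks virus entry in endosomes, held 534102 UMIs over all cells, 54.5% of the UMIs of the 33 genes, and Bst2 (tetherin), which holds budding virus at the cell surface, held 8.22%. Ifitm3 stood at 2721, 2304, 681, 646 and 599 CPM, and was the gene that did not lead in 2-week sponge. Bst2 stood at 136, 420, 198, 143 and 144 CPM. Sums over the genes are therefore given without Ifitm3.

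Of the other genes, Ifi44, of little known function, had the largest log2 ratios, at 0.377, 15.7, 3.12, 0.726 and 0.158 CPM, the last again 1 UMI. It lay 5.35 (4.83 to 5.98) above the control in 2-week sponge and at -4.41 (-5.00 to -3.91) in 2-week silk against 2-week sponge. Rtp4, a chaperone of membrane receptors, stood at 21.1, 74.6, 25.9, 10.9 and 7.25 CPM. Xaf1, which promotes cell death, stood at 15.4, 53.5, 15.8, 14.6 and 9.46 CPM. The remaining genes had smaller spans. Ifi35 stood at 19.4, 48.8, 26.6, 20.5 and 18.1 CPM. Parp14, an ADP-ribosyltransferase, stood at 72.8, 128, 38.5, 37.9 and 33.8 CPM. Trim30a, a member of the TRIM family, stood at 99.4, 162, 91.7, 68.1 and 56.9 CPM.

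**Figure D1:**
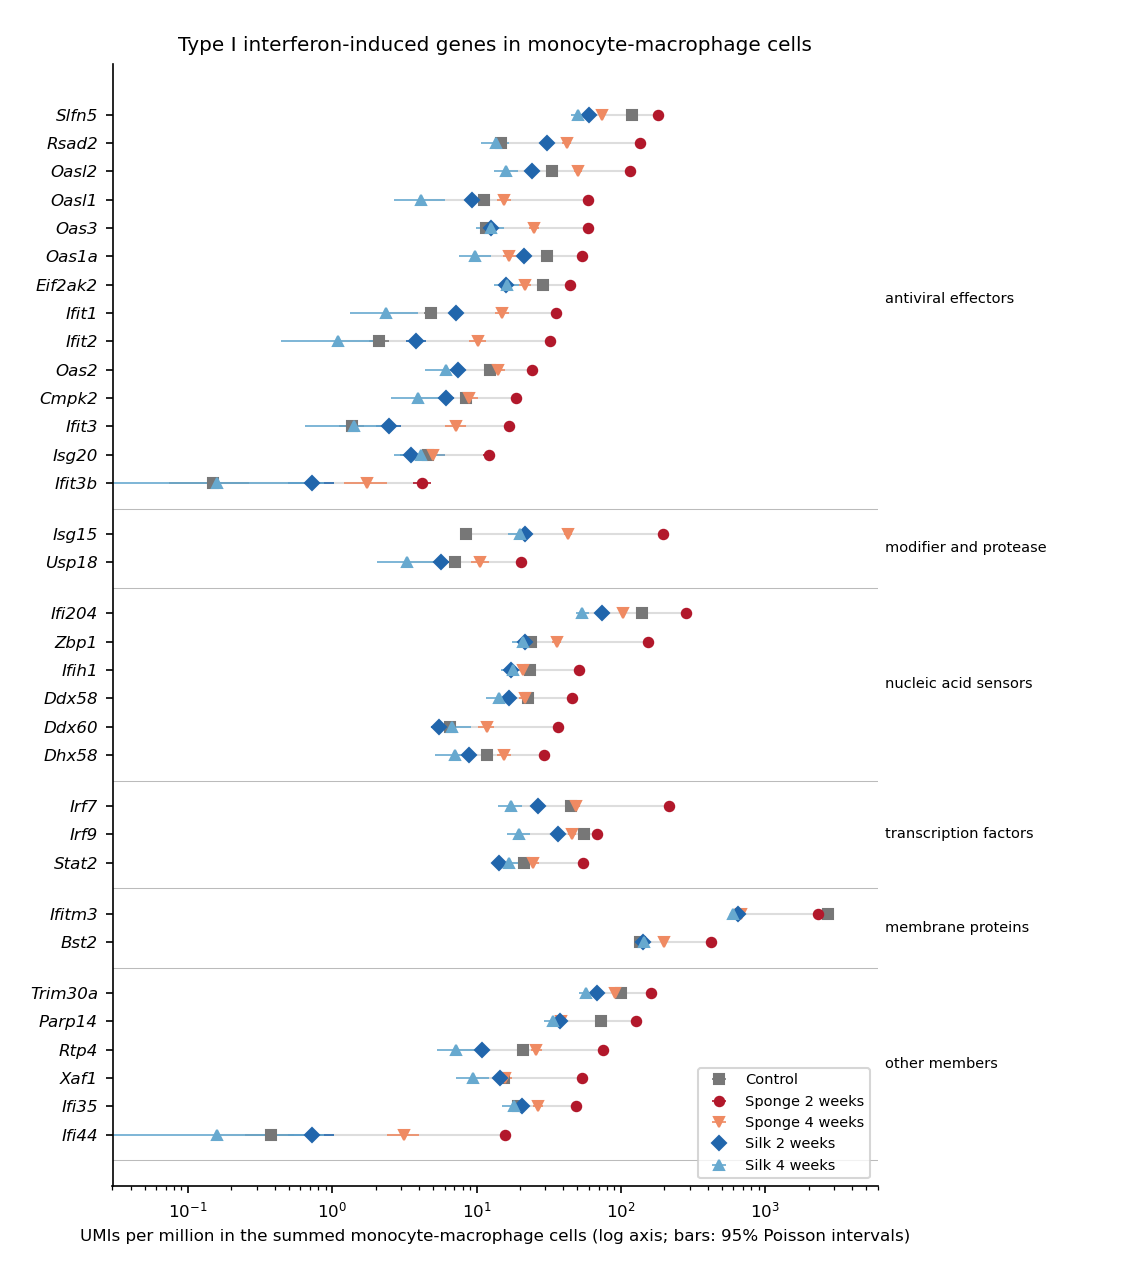
Level of each of the 33 genes in Mo-Mac cells, in CPM on a log axis, grouped by role, with 1 point for each of the 5 libraries and 95% Poisson bars for counting error. The points of 2-week sponge lie to the right of the other 4 in 32 genes, and Ifitm3 is the exception, with the control at 2721 CPM.

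Promoters are shown because the response element is the sequence through which the pathway is known to act on these genes. The core searched was GAAA, any 2 bases and GAAA again, on both strands (read as TTTC, any 2 bases and TTTC on the other), in the 250 bases before each RefSeq start on GRCm38.p6. Of the 26 genes with a window in the RefSeq table, 12 held a match (46.2%), against 936 of 27025 genes with a window (3.46%), and 7 (26.9%) held more than 1 match, against 57 (0.211%). Isg15 held 3 overlapping matches. Ifit1, Ifit3, Ifit3b, Oas1a, Bst2 and Ddx60 held 2, and Rsad2, Oas3, Stat2, Trim30a and Slfn5 held 1. Oas2, Usp18, Ifi204, Dhx58, Zbp1, Parp14 and Rtp4 had no window in the table. Isg15, Irf7, Oasl1 and Ifit2 are printed as the genes with a window and the largest silk against sponge difference at 2 weeks, on the scale with 5 CPM added, and Ifit3 for its pair of matches. Each stretch holds 120 bases, 5' to 3' on the gene's own strand, and capitals mark matches.
Isg15 (chr4:156200819-156200938, minus strand, bases -120 to -1 from the start): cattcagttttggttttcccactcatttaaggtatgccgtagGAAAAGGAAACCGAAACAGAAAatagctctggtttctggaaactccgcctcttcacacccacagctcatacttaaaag
Irf7 (chr7:141266425-141266544, minus strand, bases -120 to -1): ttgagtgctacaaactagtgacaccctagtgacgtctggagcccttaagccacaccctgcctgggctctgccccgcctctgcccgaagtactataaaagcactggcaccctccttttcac
Oasl1 (chr5:114923120-114923239, plus strand, bases -120 to -1): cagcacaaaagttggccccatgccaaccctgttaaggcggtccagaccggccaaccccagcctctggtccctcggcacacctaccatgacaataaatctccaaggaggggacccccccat
Ifit2 (chr19:34550574-34550693, plus strand, bases -120 to -1): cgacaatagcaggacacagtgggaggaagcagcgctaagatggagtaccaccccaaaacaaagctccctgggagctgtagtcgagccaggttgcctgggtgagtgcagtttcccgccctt
Ifit3 (chr19:34583358-34583477, plus strand, bases -171 to -52): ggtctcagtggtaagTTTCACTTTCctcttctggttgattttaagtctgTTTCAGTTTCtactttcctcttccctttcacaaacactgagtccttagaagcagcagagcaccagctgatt
The stretch of Ifit3b at chr19:34607754-34607873 has the same letters as that of Ifit3 at all 120 bases. In Isg15 the matches begin 78, 72 and 66 bases before the start and run into each other. Irf7, Oasl1 and Ifit2 hold no match in their windows and, like Isg15, stood among the genes with the largest differences. A match is a run of letters and does not show that a factor binds there, and no match says only that these letters are not in the window.

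Summed without Ifitm3, the genes stood at 1016, 2849, 1090, 749.7 and 610.0 CPM in Mo-Mac cells, in the order used above. The sponge library at 2 weeks held the highest sum, and 4-week silk the lowest. A gene was then called higher or lower when it differed at least 2-fold with 5 CPM added to each level, among genes with at least 20 UMIs over both libraries and a mean of at least 5 CPM. Differences and medians are on that log2 scale, whereas log2 ratios, which include every value with an interval, are taken without the 5 CPM.

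Silk was set against sponge at equal times, which asks whether the level of these genes goes with the material. At 2 weeks 31 of 32 genes tested were lower in silk, where 2.96% of all genes tested were, and the median difference was -1.60, against 0.08 over all genes tested. Irf9 (-0.81) was the gene not called, and Ifit3b was too low to be tested. The counting intervals of all 33 ratios lay below 0. At 4 weeks 8 of 29 genes were lower in silk, where 0.743% of all genes were: Ifit1 (-2.63), Ifit2 (-3.11), Irf7 (-1.50), Irf9 (-1.22), Rsad2 (-1.62), Oasl1 (-1.89), Oasl2 (-1.64) and Rtp4 (-1.82), given as log2 ratios. The median was -0.65, and 30 of 33 intervals lay below 0.

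Time was compared within each material. In sponge 21 of 32 genes were lower at 4 than at 2 weeks, where 2.52% of all genes were, with a median of -1.11 against 0.09 over all genes. The other 11 (Isg20, Ifit3, Irf9, Oas2, Usp18, Ifi35, Ddx58, Dhx58, Eif2ak2, Trim30a and Cmpk2) had differences of -0.93 to -0.53. In silk 0 of 26 genes were called in either direction at 4 against 2 weeks, where 0.638% of all genes were higher and 0.581% lower. The median there was -0.18, and 17 of 33 intervals held 0. The silk against sponge difference at 2 weeks and the difference with time in sponge share the library of 2-week sponge, so they are not separate evidence that this library is high.

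The makeup of the class differed between these libraries, and the counts moved with it. Subcluster C4 was 35.7% (34.6% to 36.9%) of Mo-Mac cells in 2-week sponge, 1.54% in 4-week sponge, 1.89% in 2-week silk and 1.34% in 4-week silk. C7 was 15.8%, 45.1%, 60.7% and 47.5%, C6 20.7%, 34.9%, 29.3% and 30.1%, and C5 19.1%, 9.51%, 1.41% and 3.35%. With subclusters of at least 50 cells in both libraries weighted equally, 1 gene was lower in 2-week silk in place of 31 (median -0.36), 3 at 4 weeks in place of 8, and 0 in 4-week against 2-week sponge in place of 21 (median -0.03). Weighted equally without C4 the counts were 10, 3 and 2. With C4 left out and the other cells as they were, they were 28, 7 and 16. The percentages of all genes given above belong to the unweighted class sums with C4. None is given for these settings, so these counts stand without that comparison. The part of makeup in the class counts was not tested beyond these settings.

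Against the elicited control, 19 of 32 genes were higher in 2-week sponge and 0 lower, where 7.81% of all genes were higher and 4.53% lower. The median was 1.16, against -0.10 over all genes. The 13 genes not called ran from Ifitm3 (-0.24), Irf9 (0.27) and Eif2ak2 (0.55) to Ifi204 (0.97) and Ifih1 (0.99). In 4-week sponge 4 of 29 genes were higher (Isg15, Ifit1, Ifit2 and Rsad2, at log2 ratios of 2.36, 1.65, 2.27 and 1.51) where 7.51% of all genes were. Ifitm3 alone was lower (log2 ratio -2.00), where 4.15% were. Of the 33 counting intervals, 18 lay above 0 and 8 below in 4-week sponge, and 32 above and 1 (Ifitm3) below in 2-week sponge. Without C4 only 1 gene was higher in 4-week sponge than in the control.

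In silk no gene passed 2-fold above the control with 5 CPM added, at either time. Without the added CPM, 8 of the 33 counting intervals of 2-week silk lay above 0 and 22 below, and in 4-week silk 1 (Isg15) lay above and 21 below. The 8 were Isg15 (log2 ratio 1.37), Rsad2 (1.05), Ifit1, Ifit2, Ifit3, Ifit3b, Ifi44 and Bst2. Isg15 and Rsad2 were thus above 2-fold as ratios, and were not called with 5 CPM added. In Mo-Mac cells, genes higher in silk than in the control were not counted under other settings, such as 1 CPM added. At 2 weeks 0 of 28 genes were higher, where 7.15% of all genes were, and Ifitm3 was lower (log2 ratio -2.07), where 4.56% were. At 4 weeks 0 of 27 were higher, where 7.04% were. There 8 were lower, where 3.90% were, given as log2 ratios: Irf7 (-1.39), Irf9 (-1.50), Oas1a (-1.64), Ifi204 (-1.38), Parp14 (-1.10), Rtp4 (-1.53), Ifitm3 (-2.18) and Slfn5 (-1.24). That count was 3 with each cell thinned to 1000 UMIs. All 4 comparisons share the control library, and control and granuloma Mo-Mac cells shared hardly any subcluster: C1, C2 and C10 held 83.2%, 9.07% and 7.07% of control cells and at most 26 cells of a granuloma library in any 1 of them. Body site, isolation and material cannot be told apart in them.

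Values that moved with these groups are given as measured. Monocyte markers (8 of 8 detected) summed to 493, 2404, 929, 903 and 1063 CPM in Mo-Mac cells, highest in 2-week sponge. Dissociation and immediate early genes (22) summed to 5601, 12324, 13050, 9856 and 13238 CPM. Fibroblast markers summed to 0.659, 453, 613, 120 and 72.2 CPM, neutrophil markers to between 77.1 (control) and 223 CPM (2-week sponge) and red blood cell markers to 0.0807, 106, 0.672, 121 and 3.00 CPM. Their part in the differences was not tested.

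In 2-week sponge the signal was spread over many cell types, with C4 as its largest single holder. C4 was 20.6% of the cells of that library, 17.3% of its UMIs and 26.3% of the UMIs of the genes without Ifitm3. Fibroblast subcluster F1 held 19.7% of them, with 11.0% of cells and 21.6% of UMIs. C5 held 10.4% (7.57% of UMIs), and endothelial cells 10.1% (8.24% of UMIs). By class, Mo-Mac cells as deposited held 51.6%, fibroblasts 29.6% and neutrophils 3.48%. A share above the share of UMIs means a level above the library's own mean, which held for C4, C5, C3 (3.33% against 2.22%), N2 (2.02% against 1.12%), N3 (0.796% against 0.689%), endothelial cells and myocytes (4.38% against 3.73%). It was the reverse, among others, in F1, F2 (2.57% against 6.25%), C7 (5.54% against 11.3%) and C6 (2.64% against 3.77%).

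**Figure D2:**
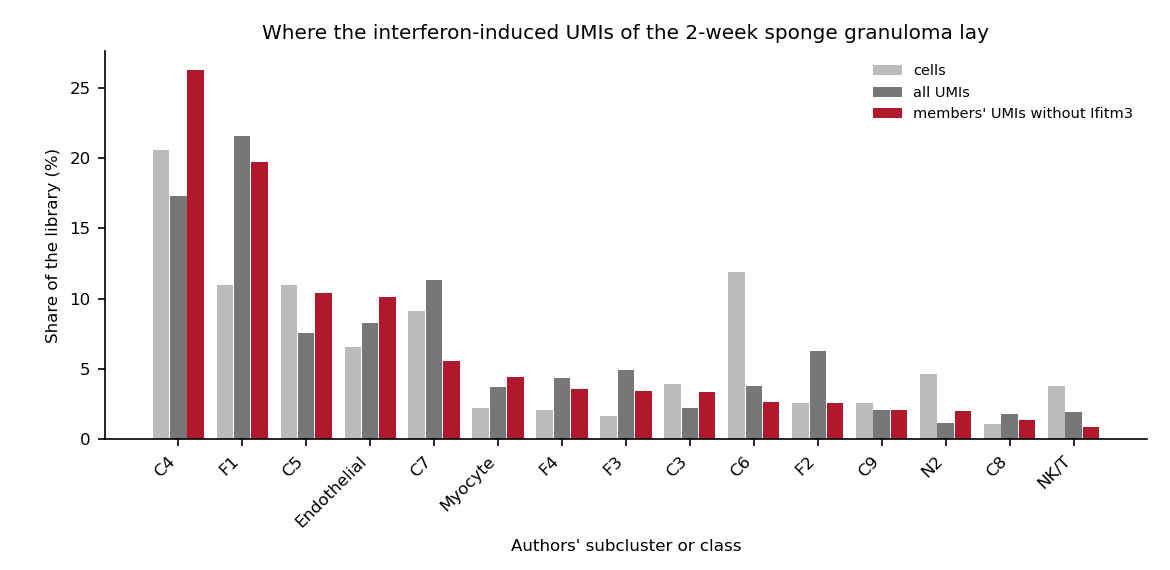
2-week sponge: for each subcluster or class, its percentage of cells, of all UMIs and of the UMIs of the 32 genes without Ifitm3. C4 holds the most of the genes' UMIs, 26.3%, and F1 follows with 19.7%.

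Per UMI, the order of the subclusters was another one. The summed level without Ifitm3 was 4558 CPM in neutrophil subcluster N2, 3831 in C4, 3784 in C3, 3457 in C5, 3082 in endothelial cells, 2970 in myocytes and 2915 in N3. It was 2502 in N1, 2312 in F1, 2066 in F4, 1985 in C8, 1775 in F3, 1765 in C6, 1244 in C7, 1094 in NK and T cells (NK/T) and 1038 in F2. C7, the lowest of the Mo-Mac subclusters here, was also the one with the most cells of the class in silk. Of the 33 genes, 11 were highest in N2 among the 13 Mo-Mac, fibroblast and neutrophil subclusters (Isg15, Isg20, Ifit1, Ifit3, Ifit3b, Irf9, Rsad2, Oasl2, Ddx58, Parp14 and Trim30a). C3 led in 9 (Oas1a, Oas2, Stat2, Ifi204, Ifi35, Ifih1, Eif2ak2, Ifitm3 and Slfn5), C5 in 5 (Ifit2, Oasl1, Bst2, Dhx58 and Ddx60) and C4 in 4 (Irf7, Xaf1, Zbp1 and Cmpk2). F1 led in Ifi44 and Usp18, and N1 in Oas3 and Rtp4. Isg15 stood at 779 CPM in N2 and 349 CPM in C4, while Irf7 stood at 108 and 308 CPM. N2 is shallow, with a median of 1844 UMIs, against 5640 in C4.

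Within C4 the levels of 4-week sponge and 2-week silk were above that of 2-week sponge. C4 had 2542 cells in 2-week sponge, 71 in 4-week sponge, 139 in 2-week silk, 14 in 4-week silk and 5 in the control. Its summed level without Ifitm3 was 3831 CPM (3801 to 3860) in 2-week sponge, 7563 (7260 to 7875) in 4-week sponge and 6870 (6678 to 7066) in 2-week silk. It was 2304 (1958 to 2694) in the 14 cells of 4-week silk, below 2-week sponge, and 18064 (16596 to 19626) in the 5 cells of the control. The few C4 cells of 4-week sponge and 2-week silk held a higher level than the many of 2-week sponge. In 2-week silk against 2-week sponge 11 of 33 genes were higher in C4 and 0 lower, where 1.66% of all genes were higher, with a median of 0.72 against 0.11 over all genes. In 4-week against 2-week sponge 15 were higher, where 5.66% were, with a median of 0.98 against 0.15.

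Named genes of C4 are given in the order 2-week sponge, 4-week sponge and 2-week silk. Cmpk2 stood at 27.9, 113 and 182 CPM, with a log2 ratio of 2.71 (2.41 to 2.99) in 2-week silk against 2-week sponge. Rsad2 stood at 230, 744 and 882 CPM (1.94, 1.82 to 2.06). Ifit1 stood at 49.1, 325 and 226 CPM (2.21, 1.95 to 2.45). Of these 3 libraries, the one that held most of the C4 cells had the lowest level of these effectors. Ifit3 stood at 24.4, 200 and 97.4 CPM and Ifit3b at 4.75, 19.3 and 38.1 CPM. Ifit2 stood at 45.7, 258 and 135 CPM, and Usp18 at 26.3, 110 and 90.3 CPM. Isg15 stood at 349, 751 and 456 CPM, and Irf7 at 308, 541 and 473 CPM, with smaller ratios in silk (0.39 and 0.62). Beside this, dissociation genes in C4 summed to 12120, 17321 and 13273 CPM, monocyte markers to 3439, 4650 and 2944 CPM and fibroblast markers to 415, 506 and 140 CPM. The part of these in the C4 differences was not tested.

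The other Mo-Mac subclusters had lower levels outside 2-week sponge. In 2-week silk against 2-week sponge 27 of 30 genes were lower in C8, where 4.73% of all genes were, with a median of -1.83. In C6 16 of 28 were lower (1.34% of all genes), in C5 13 of 32 (4.05%) and in C7 12 of 27 (0.990%). In C3 it was 4 of 31, where 0.995% of all genes were, given as log2 ratios: Isg15 (-1.48), Zbp1 (-1.14), Parp14 (-1.15) and Ifih1 (-1.13). In 4-week against 2-week sponge the counts were 16 of 31 in C8 (4.02% of all genes), 7 of 29 in C6 (0.850%), 7 of 28 in C7 (0.819%), 2 of 33 in C5 (0.820%; Oasl1 and Oas1a at log2 ratios of -1.14 and -1.16) and 0 of 31 in C3 (1.40%). Without the 5% of cells with the most UMIs the counts in C7 were 7 in silk and 3 with time.

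Gene levels in these subclusters are given in the order 2-week sponge, 4-week sponge, 2-week silk and, where it had 50 cells, 4-week silk. In C7, Irf7 stood at 84.4, 21.3, 14.4 and 6.25 CPM. Isg15 stood there at 42.3, 14.3, 9.80 and 6.47 CPM, and Rsad2 at 45.9, 22.6, 14.1 and 10.1 CPM. Each of these was highest in 2-week sponge and lowest in 4-week silk. In C6, Irf7 stood at 106, 36.4, 19.0 and 9.52 CPM, and Oasl1 at 35.6, 8.60, 4.69 and 1.59 CPM. Isg15 stood in C6 at 98.0, 39.7, 25.1 and 11.1 CPM, and Rsad2 at 58.5, 22.8, 11.7 and 3.17 CPM. C6 and C7 made up most Mo-Mac cells of silk, and the order of libraries was one and the same in both for these genes. In C6 of 4-week silk, with 315 cells, a count of 0 allows up to 5.85 CPM. The last place of that library in C6 therefore rests on few counts, above all for Oasl1 and Rsad2.

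In C8, Rtp4 stood at 69.5, 18 and 0 CPM in 2-week sponge, 4-week sponge and 2-week silk. Isg15 stood there at 111, 16.7 and 6.55 CPM, Irf7 at 129, 23.6 and 13.1 CPM, Rsad2 at 92.1, 22.2 and 19.6 CPM and Zbp1 at 90.9, 30.5 and 10.5 CPM. C8 was small, at 1.87%, 1.95% and 0.830% of the class. In C5, Irf7 stood at 287, 142 and 53.8 CPM, with a log2 ratio of -2.38 (-3.17 to -1.75) in silk, and Isg15 at 129, 88.3 and 41.8 CPM. Rsad2 stood in C5 at 122, 111 and 44.8 CPM, and Ifit3 at 26.4, 23.5 and 17.9 CPM. C3 had the highest sum of monocyte markers named here, which summed to 10730 CPM in 2-week sponge against 242 CPM in C7, and was the flattest. Isg15 stood there at 225, 166, 80.6 and 148 CPM, Irf7 at 192, 171, 117 and 127 CPM, Rsad2 at 68.4, 59.2, 68.7 and 35.1 CPM and Ifit3 at 10.3, 13.1, 6.25 and 5.86 CPM. Whether the subclusters differ from C4 in these differences was not tested, since each rests on single libraries.

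**Figure D3:**
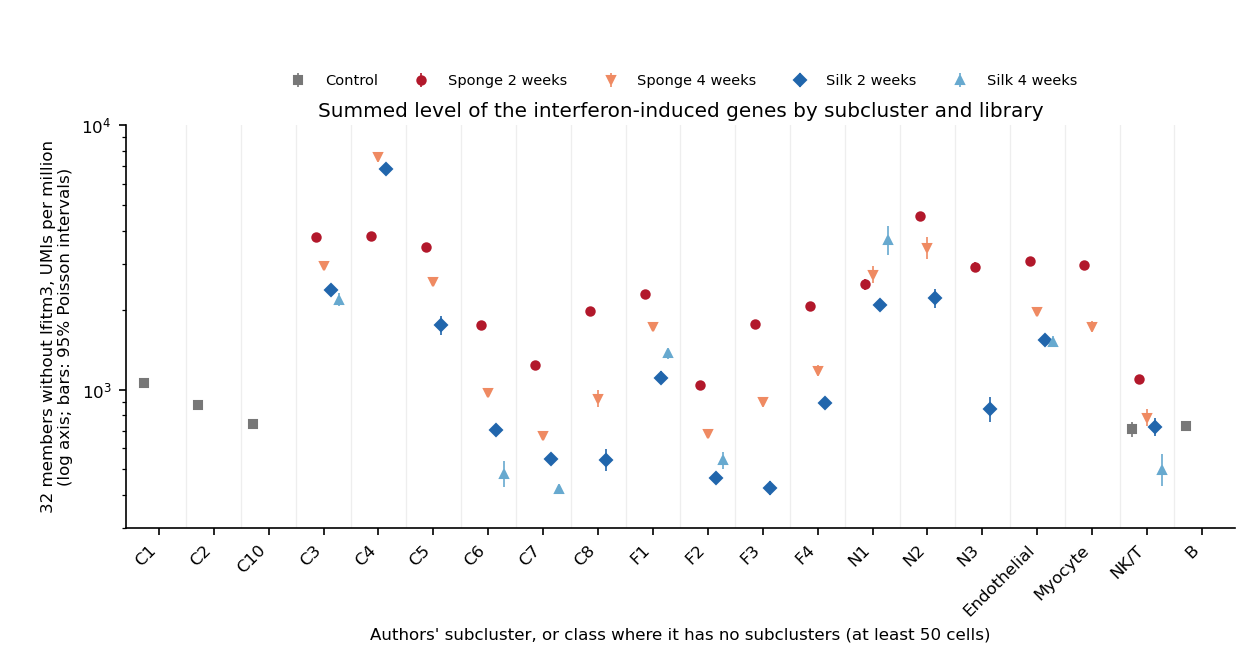
Summed CPM of the 32 genes without Ifitm3, on a log axis, by subcluster or class with at least 50 cells, with 1 point per library. In C4 the points of 4-week sponge (7563) and 2-week silk (6870) lie above that of 2-week sponge (3831).

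**Figure D4:**
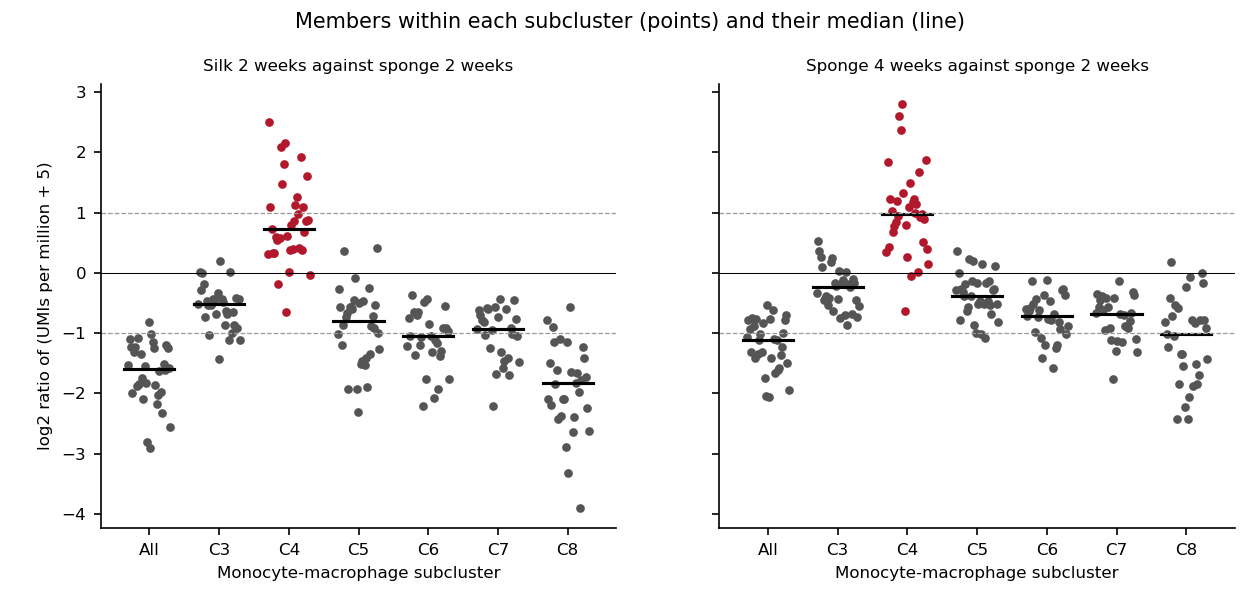
Log2 difference of each gene tested, with 5 CPM added, for 2-week silk against 2-week sponge and 4-week against 2-week sponge, in all Mo-Mac cells and in C3 to C8. Lines are medians and dashed lines mark 2-fold: the median is above 0 in C4 (0.72 and 0.98) and below 0 in C8 (-1.83 and -1.02).

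C9, which was left out for its mixed leading genes, was also highest in 2-week sponge, with 2-week silk next. It had 129, 317, 229, 182 and 61 cells in the order of libraries used for the class. Its summed level without Ifitm3 was 877.3, 2503, 932.4, 1319 and 685.0 CPM, and Isg15 stood at 12.8, 305, 58.7, 119 and 35.6 CPM.

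Outside the Mo-Mac class the summed level of each granuloma class compared was also highest in 2-week sponge. In the order 2-week sponge, 4-week sponge, 2-week silk and 4-week silk it was 1997, 1229, 573.4 and 918.3 CPM in fibroblasts, 3082, 1964, 1539 and 1522 CPM in endothelial cells and 3547, 2821, 1777 and 2987 CPM in neutrophils. Within neutrophils the order differed in subcluster N1. It had 2502, 2729, 2086 and 3672 CPM in the same order, highest in 4-week silk, which held 59 N1 cells. Myocytes had 2970 and 1734 CPM in sponge, with too few cells in silk. NK/T cells, the one such class with enough cells in the control, had 708.0 CPM there and 1094, 784.9, 723.3 and 498.4 CPM in the granulomas. B cells of the control had 728.3 CPM.

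In fibroblasts, the matrix-making cells of the granuloma, 22 of 32 genes were lower in 2-week silk than in 2-week sponge, where 1.84% of all genes were, with a median of -1.22 against 0.15 over all genes. None was higher, where 1.22% of all genes were. Isg15 stood at 155, 75.6, 19.5 and 26.5 CPM, and its log2 ratio in 2-week silk against sponge was -2.99 (-3.18 to -2.81). Irf7 stood at 103, 45.5, 12.5 and 7.94 CPM, Rsad2 at 34.9, 15.2, 4.30 and 5.29 CPM and Ifit3 at 28.4, 15.7, 5.57 and 5.29 CPM. Slfn5 stood at 232, 173, 48.7 and 182 CPM and was the 1 of 24 genes higher in silk at 4 than at 2 weeks, where 3.98% of all genes were higher and 3.95% lower. Ifit1 stood at 85.5, 61.2, 16.2 and 15.5 CPM. At 4 weeks 5 of 29 genes were lower in silk than in sponge (1.42% of all genes), and in sponge 3 of 33 were lower at 4 than at 2 weeks (0.785%).

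Fibroblasts too differed in makeup. F1 held 1358 of 2127 compared fibroblasts in 2-week sponge and 105 of 798 in 2-week silk. Within subclusters, 2-week silk was lower in 13 of 33 genes in F1 (1.29% of all genes), 14 of 26 in F2 (1.27%), 26 of 31 in F3 (1.68%) and 17 of 32 in F4 (2.32%), so the direction was present in each. Macrophage markers summed in F4 to 4760 CPM in 2-week sponge and 5870 CPM in 2-week silk, against 139 and 115 CPM in F1. The part of macrophage RNA in F4 was not tested. In F3, Isg15 stood at 188 CPM in sponge and 13.2 CPM in 2-week silk (log2 ratio -3.80, -4.39 to -3.31), and Ifit1 at 78.6 and 4.70 CPM. In F1, Isg15 stood at 171 and 43.9 CPM.

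Endothelial cells had 12 of 31 genes lower in 2-week silk than in 2-week sponge, where 1.47% of all genes were, with a median of -0.81. Zbp1 led, at 62.3, 15.6, 9.78 and 9.05 CPM, with -2.65 (-3.17 to -2.20) in 2-week silk. Isg15 stood at 178, 98.8, 44.2 and 49.8 CPM, Irf7 at 89.3, 41.5, 21.0 and 13.6 CPM, Rsad2 at 81.8, 38.4, 27.4 and 17.2 CPM and Ifit3 at 23.7, 12.4, 5.13 and 7.24 CPM. Bst2 was high in this class, at 1017, 541, 430 and 369 CPM. At 4 weeks 5 of 28 genes were lower in silk than in sponge (2.49% of all genes). In sponge 3 of 33 were lower at 4 than at 2 weeks (1.63%) and 0 higher (3.27%), and in silk Ifi204 alone of 27 was lower (3.31%) and 0 were higher (1.35%).

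Neutrophils had the highest Isg15 levels of any class, 584, 650, 375 and 927 CPM, and their order over libraries was a different one. In 2-week silk against 2-week sponge 15 of 32 genes were lower, where 2.52% of all genes were, and 0 higher, where 2.80% were, led by Zbp1 at 133 against 25.7 CPM and Ifi204 at 305 against 94.9 CPM. Rsad2 stood at 342, 509, 153 and 277 CPM, Irf7 at 112, 42.1, 44.9 and 72.3 CPM and Ifit3 at 28.1, 30.4, 9.28 and 0 CPM. That count of 0 allows up to 44.4 CPM. In sponge 6 of 32 were lower at 4 than at 2 weeks, where 9.72% of all genes were, and 0 higher, where 6.77% were. At 4 against 2 weeks in silk 6 of 23 were higher, where 5.92% of all genes were, with Isg15 at 1.32 (0.94 to 1.66). That library had 69 neutrophils with a median of 1083 UMIs. At 4 weeks 1 of 18 genes, Ifit1, was higher in silk than in sponge (5.96% of all genes), at 108 against 44.4 CPM. These levels rest on 9 and 19 UMIs, and their intervals overlap (49.6 to 206 and 26.7 to 69.3 CPM). By subcluster, 2-week silk was lower in 1 of 24 genes in N1 (1.59% of all genes), 15 of 31 in N2 (11.9%) and 21 of 27 in N3 (5.38%), and N1 was 598 of 814 compared neutrophils in silk and 364 of 1044 in sponge. Macrophage markers summed in N3 to 15019 CPM in 2-week sponge and 15384 CPM in 2-week silk. In N2 they summed to 5338 and 4387 CPM. The part of macrophage RNA in the N3 count was not tested.

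Myocytes were compared in sponge only, where 8 of 32 genes were lower at 4 than at 2 weeks, with 2.14% of all genes. Isg15 stood at 259 and 91.9 CPM (-1.49, -1.82 to -1.18), Zbp1 at 54.4 and 16.5 CPM, Irf7 at 113 and 48.5 CPM, Rsad2 at 63.1 and 36.1 CPM and Ifit3 at 25.4 and 14.5 CPM. Without cells above 10% mitochondrial UMIs the count was 5. The name of the class is the authors' own. Markers of mural cells (cells of the vessel wall) summed in it to 7991 and 6531 CPM in 2- and 4-week sponge. Endothelial markers summed to 2477 and 2553 CPM, against 4868 and 5563 CPM in endothelial cells. The part of endothelial RNA in the myocyte levels was not tested.

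NK/T cells had the lowest sum of the granuloma classes in each library but 2-week silk, where fibroblasts were lower. Isg15 was at 3.96 CPM in control cells, and at 74.1, 52.3, 57.6 and 42.8 CPM in 2- and 4-week sponge and 2- and 4-week silk, above the control in all 4 (log2 ratios 4.10, 3.60, 3.74 and 3.34). In 2-week sponge 7 of 27 genes were higher than in the control (6.14% of all genes), among them Rsad2 at 29.9 against 1.58 CPM and Isg20 at 27.7 against 4.75 CPM, and 1 was lower (7.42%). The count was 2 with 20 CPM added and with thinned cells. Elsewhere 1 gene was higher than the control in each library, with 8.81%, 7.90% and 8.19% of all genes in 4-week sponge and 2- and 4-week silk. There 2 of 22, 1 of 20 and 3 of 17 were lower (6.43%, 6.02% and 10.0%). Ifitm3 stood at 638, 370, 87.2, 53.0 and 10.1 CPM from the control on, highest in the control, where Isg15 was lowest. Among the granulomas both genes were highest in 2-week sponge and lowest in 4-week silk. Macrophage markers summed in NK/T cells to 5091, 1490, 1102, 1939 and 1374 CPM in the same order. The part of macrophage RNA in the Ifitm3 levels was not tested. 2-week silk had 5 of 25 genes lower than sponge (1.60% of all genes), 4-week silk 2 of 13 (4.10%), 4-week against 2-week sponge 5 of 27 (2.43%) and 4-week against 2-week silk 2 of 15 (4.69%). Irf7 stood at 25.3, 41.1, 48.2, 33.4 and 25.2 CPM.

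Counted per cell, the genes were widespread in 2-week sponge. Each cell was thinned to 1000 UMIs and shallower cells were left out (345, 485, 631, 642 and 192 Mo-Mac cells). The share of Mo-Mac cells with UMIs of at least 3 of the genes was 22.9% (21.9% to 23.9%) in the control, 54.0% (52.8% to 55.2%) in 2-week sponge, 17.7% (16.5% to 18.9%) in 4-week sponge, 10.5% (9.76% to 11.2%) in 2-week silk and 11.0% (9.0% to 13.3%) in 4-week silk. Unthinned, the shares were 86.4%, 85.4%, 48.3%, 50.2% and 44.7%. The control share includes its high Ifitm3, and its order against 4-week sponge goes against the summed level without Ifitm3, so no order is read there.

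In 2-week sponge the share was 76.3% in C3, 71.0% in C4, 66.2% in C5, 61.4% in endothelial cells, 57.5% in myocytes, 49.6% in neutrophils and 40.7% in fibroblasts. It was 34.1% in C8, 30.6% in C6 and 17.7% in C7. NK/T cells of the same library had 9.66%, at a median of 3110 UMIs before thinning, and B cells of the control 4.97%. The shares of C3 to C8 were all above that of NK/T cells of the same library, whose share is given for comparison only. It is not a background, since NK/T cells held UMIs of these genes too and may express them. Ifitm3 counts among the genes here, and NK/T cells had a lower level of it than the Mo-Mac class at 2 weeks, in sponge and in silk. The parts of Ifitm3 and of free RNA in these shares, and in those of 2-week silk below, were not tested. In 2-week silk the share was 77.7% in C4, 51.0% in C3, 22.9% in C5, 8.22% in C6, 5.46% in C7 and 1.64% in C8, next to 2.78% (1.12% to 5.64%) in NK/T cells. There the shares of C7 and C8 lay within the interval of NK/T cells or below its value, and C4 and C3 were well above it.

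**Figure D5:**
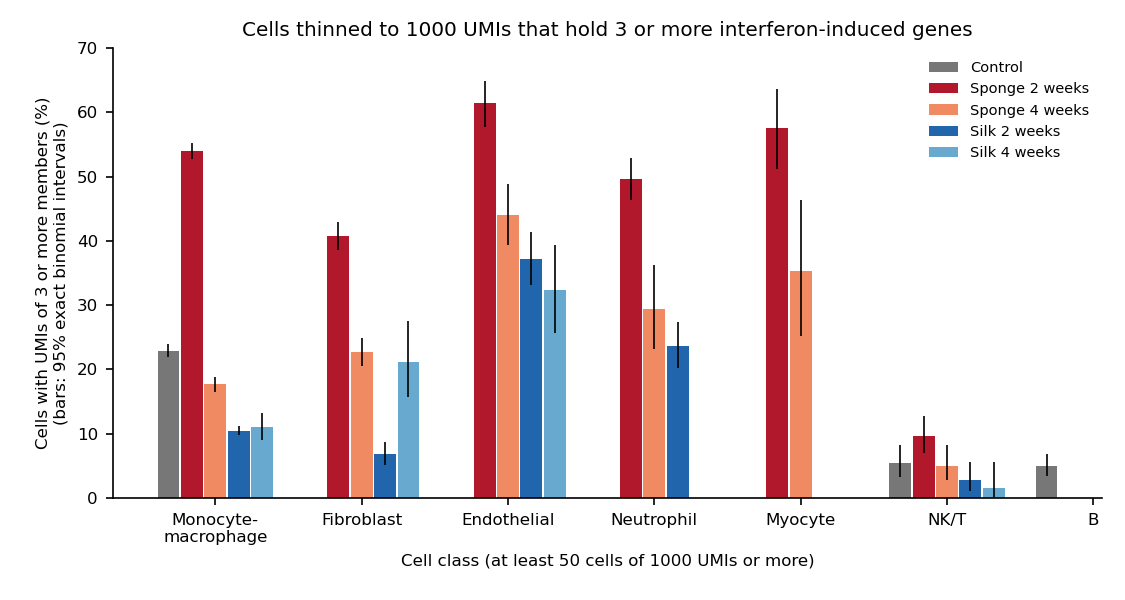
Percentage of cells, thinned to 1000 UMIs, with UMIs of at least 3 of the 33 genes, by class and library, with 95% binomial bars. Mo-Mac cells of 2-week sponge reach 54.0%, against 10.5% in 2-week silk, and NK/T cells stay at 9.66% or below.

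Cells with at least 10 of the genes after thinning were rare. There were 5 of 8648 in the control, 199 of 11535 in 2-week sponge, 43 of 6754 in 4-week sponge, 56 of 9226 in 2-week silk and 1 of 1529 in 4-week silk. Of the 199, 97 were C4 cells and 36 neutrophils. In 2-week silk 27 of the 56 were C4 cells, although C4 was 139 cells there.

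The ligands were nearly absent from the counts. Of 18 type I interferon genes listed, 3 were in the table. Ifnb1 (interferon beta) held 23 UMIs in 5 cells of all libraries. Of these, 20 UMIs were in 4 C4 cells of 2-week sponge, 13 of them in 1 cell, and 3 in 1 C7 cell of 2-week silk. These 4 C4 cells held UMIs of a median of 12 of the genes (12 to 14), against 11 in the other 2538. Ifnz held 1 or 2 UMIs in each library and subcluster or class where it was found, among them C1 of the control and C7 of 2-week silk. Ifnab held 1 UMI each in C1 of the control, F1 and F3 of 2-week sponge and C7 of 4-week sponge. Ifng, interferon gamma, was found in NK/T cells with 15, 189, 107, 47 and 15 UMIs, in 3.54%, 17.5%, 9.45%, 8.58% and 5.88% of cells in the order of libraries used for the class. That is 11.9, 101, 110, 54.1 and 37.8 CPM, with sponge above silk and the control lowest.

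Receptors and kinases had narrower ranges than Irf1. In Mo-Mac cells Ifnar1 stood at 59.2, 111, 77.7, 93.8 and 85.3 CPM and Ifnar2 at 144, 161, 107, 121 and 119 CPM. The interferon gamma receptor genes Ifngr1 and Ifngr2 stood at 290, 129, 148, 189 and 201 CPM and at 129, 126, 127, 146 and 116 CPM. Of 5 receptor genes tested, 0 were higher and 1 lower in 2-week sponge than in the control, and 0 were lower in 2-week silk than in 2-week sponge. Jak1 stood at 177, 160, 151, 142 and 153 CPM, Tyk2 at 30.4, 20.6, 28.6, 25.0 and 28.7 CPM and Jak2 at 27.6, 58.0, 36.8, 45.4 and 43.1 CPM. Irf1, a transcription factor induced early by interferons, had a wider range, at 23.9, 194, 34.6, 27.0 and 31.4 CPM. The feedback inhibitors Socs1 and Socs3 stood at 0.901, 30.5, 14.5, 11.2 and 15.1 CPM and at 22.2, 202, 142, 148 and 130 CPM, above the control in all 4 granulomas. Of 19 tested genes that sense nucleic acid or relay it, 0 were called in 2-week sponge against the control, and 3 were lower in 2-week silk than in 2-week sponge.

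Further lists were counted in Mo-Mac cells beside the background percentages given above, and were chosen with earlier results of these data known. Of 55 other type I interferon-induced genes tested, 19 were higher and 1 lower in 2-week sponge than in the control (median 0.71). Ly6a (Sca-1) stood at 0.444, 449, 21.1, 7.29 and 5.84 CPM, Ifitm1 at 3.01, 438, 12.6, 14.7 and 7.41 CPM, Ms4a4c at 6.71, 240, 54.0, 43.6 and 33.1 CPM and Ifi205 at 1.92, 46.5, 16.3, 11.2 and 5.36 CPM. Ly6c2, also a monocyte marker, stood at 0.740, 394, 126, 78.9 and 111 CPM. In 2-week silk against 2-week sponge 34 of 54 were lower (median -1.15), and in 4-week against 2-week sponge 30 of 54.

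Genes best known from interferon gamma were also high in 2-week sponge. Of 20 tested, 13 were higher and 1 lower in 2-week sponge than in the control (median 1.76), and 15 were lower in 2-week silk than in 2-week sponge (median -2.00). Nos2, inducible nitric oxide synthase, stood at 0, 90.5, 0.192, 0.609 and 0 CPM. The chemokines Cxcl10 and Cxcl9 stood at 0.282, 103, 19.6, 14.8 and 7.73 CPM and at 0.269, 35.2, 2.35, 1.19 and 0 CPM. Upp1 stood at 0.0807, 47.8, 2.98, 5.39 and 0.789 CPM and Iigp1, a GTPase that attacks pathogen vacuoles, at 0.256, 33.1, 4.13, 0.679 and 0.315 CPM. Nos2 was far higher in C4 of 2-week sponge, at 226 CPM, than elsewhere, with 0.412 to 3.59 CPM in C3 and C5 to C8 of that library and 12.9 and 24.0 CPM in C4 of 4-week sponge and 2-week silk. In C4, Cxcl10 ran opposite to Nos2, at 199, 532 and 677 CPM in 2-week sponge, 4-week sponge and 2-week silk. Irf1 stood in C4 at 237, 135 and 81.9 CPM. Cxcl9 stood there at 82.2, 113 and 42.3 CPM, highest in 4-week sponge, and Gbp2 at 279, 245 and 223 CPM. Of these 3 libraries, 2-week sponge had the lowest Ifit1, Rsad2, Cmpk2 and Cxcl10 in C4 and the highest Nos2, Irf1 and Gbp2. Nos2, Cxcl10 and Cxcl9, which are of the same list, did not share an order there.

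Inflammatory genes driven by NF-kB were higher in 2-week sponge than in the control in 17 of 18 tested (median 2.68), and lower in 2-week silk than in 2-week sponge in 11, with 1 higher (median -1.09). Il1b stood at 3.11, 1824, 581, 882 and 600 CPM and Ptgs2 at 0.0538, 562, 109, 113 and 72.4 CPM. Both stayed far above the control in silk. Of 21 dissociation genes 13 were higher and 1 lower in 2-week sponge than in the control (median 1.41), and 4 were lower in 2-week silk than in 2-week sponge (median -0.29). In the other classes, other type I interferon-induced genes were lower in 2-week silk in 12 of 48 in fibroblasts, 16 of 54 in endothelial cells, 24 of 49 in neutrophils and 6 of 51 in NK/T cells.

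The genes most like the summed 33 were ranked by Spearman's rho over 24 sums of a library and a Mo-Mac subcluster, among genes with at least 500 UMIs. The 10 highest were Ifi209 (0.97), Ifi203 and Slfn1 (0.96), Sp110, Sp140 and Nlrc5, and Irgm1, Gm20559, Mndal and Rnf213 (0.93). The units share libraries and depth, and Ifitm3 dominates that sum. Without Ifitm3 Ifi206 and Ifi211 (0.97) led, followed by Ifi47 and Irgm1 (0.95), with Rnf213, Igtp, Pnp, Ifi209 and Slfn1 (0.94) among the next. Against the sum of the other genes without Ifitm3, Rtp4 and Irf7 had 0.98, Isg20 and Ddx60 0.81 and Ifitm3 0.74, so Ifitm3 followed the rest least closely. The ranking is a description of these 5 libraries.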

How the data were processed

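Chromium single-cell 3' libraries (v3 kit, per the labels' protocols) were deposited by the authors as 1 table of UMI counts per gene and cell, not normalized, with a table of cells giving each cell's class, subcluster, UMI count and percent of mitochondrial UMIs. The submitters' processing notes name Cell Ranger 3.0.0, Seurat 3.0 and mm10 without roles. The sources used here do not give the annotation, the filters on cells or how reads that map to several genes were counted. The least number of genes in a deposited cell was 201 and the highest mitochondrial percent 24.98. No doublet caller was run here, and leaving out the 5% of cells with the most UMIs in each library and class was tried in its place.

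UMIs were summed per library and class or subcluster with at least 50 cells (Python 3.11.15, NumPy 2.4.6, pandas 2.3.3, SciPy 1.17.1, matplotlib 3.10.9). Levels carry exact Poisson intervals, ratios conditional binomial intervals and shares exact (Clopper-Pearson) intervals. These intervals cover counting error only. For a ratio 0.5 counts were added to each sum, and for its interval none were. A log2 ratio is taken without, and a difference or a median with, 5 CPM added. The level that a count of 0 allows is the upper end of its Poisson interval. Other scalings came from edgeR 4.0.16 (TMM) and DESeq2 1.42.0 (median of ratios) under R 4.3.3, and neither was used for a test. The contrast step was tested on simulated counts.

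The 33 genes present were all named. In other classes and in subclusters the 5 with the largest difference, and Isg15, Ifit3, Irf7 and Rsad2, were to be named, of each pathway list up to 5, and ligands, receptors and kinases always. Where counts of genes are given, only some of these values are printed. The genes, lists and marker lists were chosen with earlier results of these data known. Positions are from GENCODE M21 on GRCm38.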

Additional observations from a re-analysis of the deposited data

Results flagged for a closer look

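In these results 2 groups moved in opposite directions under one contrast, each past 2-fold, on the log2 scale with 5 CPM added. Each rests on 1 library per group, and the difference between the groups was not tested.

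In neutrophils Ifit1 was lower in 2-week silk than in 2-week sponge (-1.19) and higher at 4 weeks (1.20), where silk had 69 neutrophils. The 4-week value rests on 9 UMIs in silk and 19 in sponge, with overlapping counting intervals. In 2-week silk against 2-week sponge several genes were higher in C4 and lower elsewhere, and the second value is the lowest of the other subclusters named. Ifit1 stood at 2.09 in C4 and down to -2.38 in C6, C7 and C8, and Slfn5, at 1.09, down to -1.78 in C6 and C8. Rsad2 (1.92 and -1.98), Oasl1 (1.26 and -2.39) and Oas3 (1.13 and -2.64) were lower in each of C5 to C8. Ifit2 (1.47 and -2.10), Usp18 (1.61 and -1.73), Ddx58 (1.09 and -1.49) and Cmpk2 (2.51 and -2.10) were lower in C8.

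In 4-week against 2-week sponge Isg15 stood at 1.09 in C4 and down to -2.42 in C6, C7 and C8, and Rsad2 at 1.67 and down to -1.84 in C6 and C8. Ifit1 (2.61 and -1.85), Ifit2 (2.37 and -1.35), Ifit3 (2.80 and -1.35), Ifi44 (1.19 and -2.43) and Cmpk2 (1.84 and -1.02) were lower in C8. Both contrasts share the C4 cells of 2-week sponge, so the C4 values of the 2 contrasts are not independent of each other.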

How the results depend on the processing

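No paired analysis was possible because each group has 1 library and the labels give no replicate numbers. Of 342 alternatives for 41 counts of genes called, 258 lay within 1.5 times the reported count and 84 did not. Of 1143 alternatives for 93 called differences of single genes in Mo-Mac cells, 739 stayed within the spread used, 391 moved and 13 turned in sign. Reported counts follow in brackets, and the cause of a move was not tested unless named. Leaving out C4, the equal weights without C4 and the sum without Ifitm3 were chosen after seeing the data.

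All 13 turned values came with subclusters weighted equally. In 2-week silk against 2-week sponge these were Isg20 0.03, Ifit1 0.57, Ifit2 0.18, Ifit3 0.46, Rsad2 0.73, Usp18 0.26 and Cmpk2 0.92. In 4-week against 2-week sponge they were Isg15 0.17, Ifit1 1.11, Ifit2 0.93, Rsad2 0.65, Oasl2 0.19 and Oas3 0.12. With these weights the Mo-Mac counts of lower genes were 1 [31] in 2-week silk against 2-week sponge, 3 [8] at 4 weeks and 0 [21] in sponge with time, and 10, 3 and 2 without C4. Without C4 alone 1 gene [4] was higher in 4-week sponge than in the control and 4 [1] lower in 2-week silk.

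With 1 CPM added, lower genes numbered 3 [0] in Mo-Mac silk with time, 9 [5] and 8 [3] in fibroblasts (4-week silk against 4-week sponge, sponge with time), 5 [3] in endothelial sponge with time, and 8 [5] in NK/T cells in both 2-week silk against 2-week sponge and sponge with time. In NK/T cells 2 [1] were higher in 2-week silk than in the control.

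With 20 CPM added, Mo-Mac counts were 1 [4] higher in 4-week sponge and 2 [8] lower in 4-week silk against the control, 19 [31] and 0 [8] lower in silk against sponge (2 and 4 weeks), and 12 [21] in sponge with time. In the order 2-week silk against 2-week sponge, at 4 weeks and sponge with time, fibroblasts had 12 [22], 3 [5] and 0 [3], endothelial cells 5 [12], 1 [5] and 1 [3], and NK/T cells 2 [5], 1 [2] and 1 [5]. Endothelial silk with time had 0 [1], neutrophil 4-week silk against 4-week sponge 0 [1] higher, myocytes 3 [8] and NK/T silk with time 1 [2]. NK/T cells against the control had 2 [7] higher in 2-week sponge, 1 [2] lower in 4-week sponge and 1 [3] in 4-week silk. C6 had 9 [16] in silk and 2 [7] with time, C7 3 [12] and 2 [7], C5 0 [2] and C8 10 [16] with time.

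TMM scaling moved all genes by -0.28 to 0.25 on the log2 scale and gave 7 [3] in fibroblast, 5 [3] in endothelial, 11 [6] in neutrophil and 8 [5] in NK/T sponge with time, 8 [5] in NK/T 2-week silk against 2-week sponge and 0 [1] higher in neutrophil 4-week silk against 4-week sponge. Median-of-ratios scaling gave 7, 5, 8 and 0 for the fibroblast, endothelial, NK/T silk and neutrophil silk counts. In Mo-Mac cells these scalings moved all genes by -0.12 to 0.09.

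With cells thinned to 1000 UMIs, Mo-Mac counts were 3 [8] lower in 4-week silk than in the control and 1 [0] in silk with time. Silk with time had 3 [1] higher in fibroblasts and 3 [1] lower in endothelial cells, and neutrophil 4-week silk against 4-week sponge 0 [1] higher. NK/T cells had 2 [7] and 0 [1] higher than the control in sponge and 2-week silk, 1 [2] and 5 [3] lower in sponge and 4-week silk, 3 [5] and 1 [2] lower in silk than sponge, and 2 [5] and 1 [2] lower with time in sponge and silk. The summed level with Ifitm3 in 2-week sponge was 7652 [7224] in C4, 2750 [3067] in C6 and 1861 [2196] in C7.

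A filter on the mean over all libraries, or none beyond 1 UMI, gave 2 [1] higher in neutrophil 4-week silk against 4-week sponge, 2 [1] higher in NK/T 2-week silk and 6 [3] lower in NK/T 4-week silk against the control, 10 and 12 [2] lower in NK/T 4-week silk against 4-week sponge and 7 [2] with time. Without cells above 10% mitochondrial UMIs, myocytes had 5 [8]. Without the 5% of cells with the most UMIs, 5 [8] were lower in Mo-Mac 4-week silk than in the control, 1 [3] in endothelial sponge with time, 7 [12] and 3 [7] in C7, and in NK/T cells 1 [2] in 4-week sponge against the control, 8 [5] and 1 [2] in silk against sponge and 1 [2] in silk with time.

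The share of Mo-Mac cells with at least 3 of the genes, in the order control, 2- and 4-week sponge, 2- and 4-week silk, was 86.4%, 85.4%, 48.3%, 50.2% and 44.7% unthinned, 51.5%, 78.3%, 33.5%, 23.6% and 23.1% at 2000 UMIs and 7.46%, 28.8%, 6.93%, 4.04% and 3.84% at 500 UMIs. The summed level in 2-week sponge fell, by the removal of a gene with many UMIs, to 3784 [8683] in C3, 3831 [7224] in C4, 3457 [5274] in C5, 1765 [3067] in C6, 1244 [2196] in C7 and 1985 [3175] in C8 without Ifitm3, and to 3463, 3315, 2884, 1500, 990.4 and 1630 CPM without Ifitm3 and Bst2.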
